A study of Mus musculus with 2 samples.

Results

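Cells that receive fibroblast growth factors (FGFs) switch on ERK, and ERK switches on a small set of genes that act back on the pathway. Here 10 such genes were examined: the Sprouty inhibitors Spry1, Spry2 and Spry4, the Sprouty-related inhibitors Spred1 and Spred2, the phosphatases Dusp4 and Dusp6, and the transcription factors Etv1, Etv4 and Etv5. They were chosen by name, as feedback and target genes of FGF signalling, and looked up by Ensembl mouse gene identifier. All 10 had a locus of their own, with no other gene joined to it, among the 34624 loci of the series. The RNA was total RNA of whole mouse embryos from CBA/Ca × C57Bl/10 crosses at embryonic day 10.5, left to develop without treatment. The series holds 1 group of 2 replicates, so levels are described and no condition is compared. Whether each replicate holds 1 embryo or several is not stated, nor whether the embryos were separate, so the spread between replicates may be technical.

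FGF binding to a receptor tyrosine kinase recruits adaptors that load Ras with GTP, and Ras passes the signal through Raf and Mek to ERK. Sprouty proteins dampen this route upstream of ERK, Spred proteins bring the Ras-inactivating protein neurofibromin to the membrane, and Dusp proteins remove the activating phosphates from ERK itself. Etv1, Etv4 and Etv5 form the Pea3 group of Ets transcription factors, and the repressor Capicua holds several of these genes down until ERK relieves it. In the midgestation embryo, Dusp6, Spry and Etv transcripts are used as markers of tissue close to FGF sources such as the limb bud ridge, the midbrain and hindbrain boundary and the tail bud. In a whole-embryo sample, fewer cells of a type and less RNA per cell cannot be told apart.

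Replicate 1 held 18318181 counts over all loci and replicate 2 held 117522171, or 6.42 times as many. A count of 0 would allow 0.164 CPM (counts scaled to the library total) in replicate 1 and 0.0255 in replicate 2. All such limits and intervals cover counting error only, since reads without molecular identifiers are not independent molecules. RPKM, the read count scaled by transcript length and library size, is the level used throughout, given for replicate 1 and then replicate 2. All 11 markers chosen for embryo tissues reached 1 RPKM in both replicates, from the embryonic globins Hbb-y (1746 and 6474 RPKM) and Hba-x (1284 and 3219) down to the epithelial gene Epcam (15.7 and 22.5). None of 9 late-onset and extra-embryonic markers did. The placental genes Prl3b1 (1.90 and 0.970) and Prl3d1 (0.204 and 0.824) were the highest of these, and 5 were listed at 0 in both replicates.

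All 10 genes reached 1 RPKM in both replicates, against 49.4% of all loci and 65.1% of protein-coding loci. Their median was 15.9 RPKM in replicate 1 and 9.40 in replicate 2. The medians of protein-coding loci were 8.38 and 5.52 RPKM. The genes fell into 3 tiers. Spred1 and Dusp6 were high, Spry4 was low, and the other 7 lay between 12.03 and 18.6 RPKM in replicate 1 and between 7.15 and 9.71 RPKM in replicate 2. These tiers were drawn after the levels were seen. Spred1 exceeded Spry4 18.5-fold in replicate 1 and 26.7-fold in replicate 2.

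**Figure D1:**
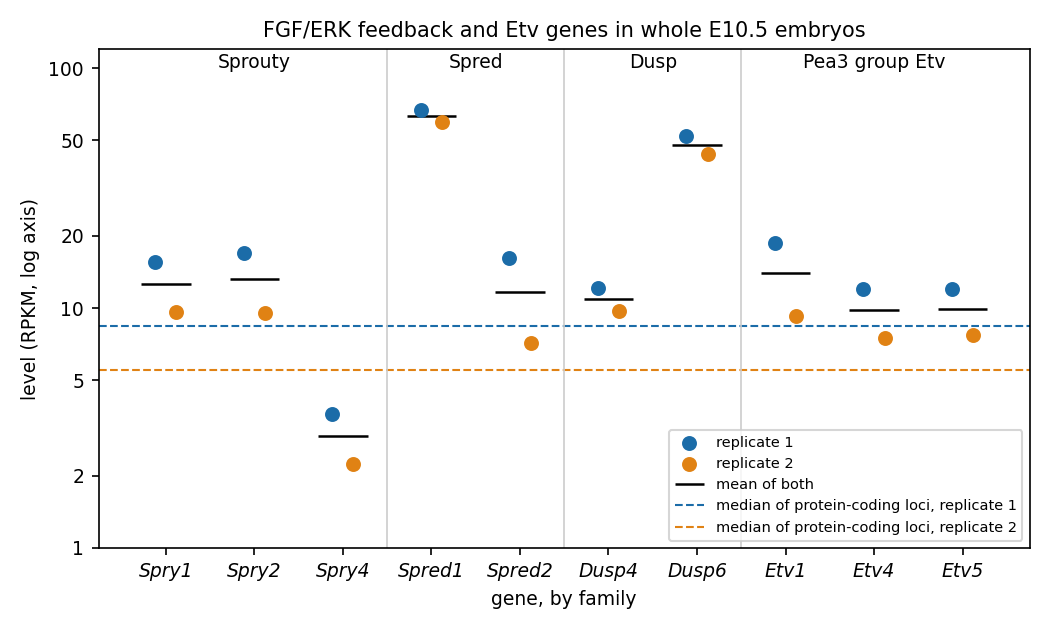
Level of each of the 10 genes in RPKM on a log axis, by family, with 1 point per replicate, a bar for the mean of both, and dashed lines at the median of protein-coding loci in each replicate. Spred1 and Dusp6 stand above 40 RPKM in both replicates, Spry4 lies below both dashed lines, and the other 7 genes lie above the line of their own replicate.

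The Sprouty genes encode inducible inhibitors that act between the receptor and ERK. Spry1 (ENSMUSG00000037211) stood at 15.6 and 9.59 RPKM, from 298 and 864 reads. Spry2 (ENSMUSG00000022114) stood at 16.9 and 9.51 RPKM, from 286 and 912 reads. Spry4 (ENSMUSG00000024427) stood at 3.62 and 2.24 RPKM, from 52 and 183 reads, and was the lowest of all 10 genes in both replicates. The 52 reads of Spry4 have an exact Poisson 95% interval of 38.8 to 68.2, the widest among the genes relative to the count. Spry1 contributed 44.0% ± 1.3 of the summed RPKM of these genes, Spry2 45.7% ± 1.6 and Spry4 10.2% ± 0.35 (SD, n = 2).

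Differences between genes were taken on log2(RPKM + 1), which understates differences of low genes, and a pair was called when its sign was the same in both replicates and its mean exceeded 2 SD of the ratio between replicates at that level. With 2 replicates no exact test can reach 0.05, so no p-value is given. Spry1 exceeded Spry4 by 1.78 ± 0.10 and Spry2 exceeded Spry4 by 1.83 ± 0.18 (SD, n = 2), both beyond the limit of 1.21. Spry1 and Spry2 could not be separated: Spry1 over Spry2 was -0.11 in replicate 1 and 0.01 in replicate 2, within the limit of 1.09. The call of Spry1 over Spry4 was lost with a pseudocount of 0.01.

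The Spred genes encode membrane proteins with a Sprouty-type tail. Spred1 (ENSMUSG00000027351) was the highest gene of the set, at 66.9 and 59.8 RPKM from 1628 and 7590 reads. It lay above 84.9% and 85.6% of protein-coding loci. Spred2 (ENSMUSG00000045671) stood at 16.2 and 7.15 RPKM, from 382 and 1046 reads. Spred1 exceeded Spred2 by 1.98 in replicate 1 and 2.90 in replicate 2, with a mean of 2.44 ± 0.65, beyond the limit of 1.09. In linear terms this was 4.13-fold and 8.37-fold, and of the 8 pairs within families this one had the largest SD. Spred1 made up 80.5% and 89.3% of the RPKM of the pair.

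The Dusp genes encode phosphatases of MAP kinases. Dusp6 is a cytoplasmic enzyme with a strong preference for ERK, and Dusp4 is a nuclear enzyme that also acts on other MAP kinases. Dusp6 (ENSMUSG00000019960) was the second highest gene, at 52.1 and 44.1 RPKM from 1160 and 5580 reads, above 80.5% and 81.0% of protein-coding loci. Dusp4 (ENSMUSG00000031530) stood at 12.1 and 9.71 RPKM, from 271 and 1233 reads. Dusp6 exceeded Dusp4 by 2.01 in replicate 1 and 2.07 in replicate 2, a mean of 2.04 ± 0.04 against a limit of 1.14. The share of Dusp6 in the RPKM of the pair was 81.1% and 81.9%, so this ratio moved less between replicates than that of the Spred pair.

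Both Dusp6 and Spry2 carry, just upstream of their annotated starts, an octamer of the kind that Capicua binds. Such octamers were searched because Capicua is the repressor named with these genes, and only sequence with a match is printed. RefSeq promoter windows (build GRCm38.p6, 250 bases before to 50 after a gene's start) were matched by symbol for 7 of the 10 genes, in 9 windows. Spry4, Dusp4 and Etv4 had none. Printed 5′ to 3′ on the strand of the gene, with the octamers in capitals, Dusp6 is at chr10:99263171-99263240 on the plus strand, ending 10 bases into the transcript, and Spry2 is at chr14:105896840-105896909 on the minus strand.
Dusp6: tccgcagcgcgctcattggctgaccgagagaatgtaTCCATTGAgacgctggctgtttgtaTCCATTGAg
Spry2: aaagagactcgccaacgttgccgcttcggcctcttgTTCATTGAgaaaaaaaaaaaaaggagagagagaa

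The 4 octamers searched on both strands were TGAATGAA, TGAATGGA, TCAATGAA and TCAATGGA. The Dusp6 window held TCAATGGA at 2 places on the opposite strand, starting 24 bases before the start and at base 2 of the transcript. The Spry2 window held TCAATGAA on the opposite strand, 54 bases before the start. None of these overlapped a GGAA, the core that Ets factors bind. Of the 9 windows 2 held at least 1 of the octamers, beside 3.84% of all 32851 RefSeq promoter windows. The windows of Spry1, Spred1, Spred2, Etv1 and Etv5 held none. The longer Ets motif CCGGAA was in 1 of the 9 windows, that of Spry2, beside 14.9% of all windows, and GGAA alone was in 8 of 9 beside 96.0%. A match describes these letters only, and binding was not measured.

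The Pea3 group genes encode the transcription factors through which FGF signals reach target genes, for instance in the limb bud, where Etv4 and Etv5 are both used. Etv1 (ENSMUSG00000004151) stood at 18.6 and 9.28 RPKM, from 450 and 1174 reads. Etv4 (ENSMUSG00000017724) stood at 12.05 and 7.52 RPKM, from 200 and 615 reads. Etv5 (ENSMUSG00000013089) stood at 12.03 and 7.75 RPKM, from 279 and 890 reads. No pair of this family was called: Etv5 over Etv4 was 0.02 ± 0.03, Etv5 over Etv1 -0.41 ± 0.25 and Etv4 over Etv1 -0.43 ± 0.22, all within the limit of 1.05. Etv1 contributed 40.7% ± 4.1, Etv4 29.4% ± 1.7 and Etv5 29.9% ± 2.4 of the summed RPKM of the group. A difference under the limit does not show that levels were equal.

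Within families 4 of 8 pairs were beyond the replicate spread, and over all pairs of the 10 genes 23 of 45 (51.1%) were. The same rule called 66.9% of all pairs of protein-coding loci with a mean of 1 RPKM or more, so the share of called pairs among the 10 genes was not above the background. Every called pair held Spred1, Dusp6 or Spry4. None of the 21 pairs among the other 7 genes was called, and in 11 of these the sign changed between replicates. Those 7 genes were grouped by these same levels, so the lack of calls among them cannot test the tiers. In the order of mean RPKM, only Dusp6 over Etv1 (1.78 ± 0.49) and Etv4 over Spry4 (1.45 ± 0.07) were neighbours beyond the spread, and the call of Etv4 over Spry4 was lost with a pseudocount of 0.1 or 0.01. Spred1 over Dusp6 was 0.39 ± 0.06, within the limit of 1.14.

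**Figure D2:**
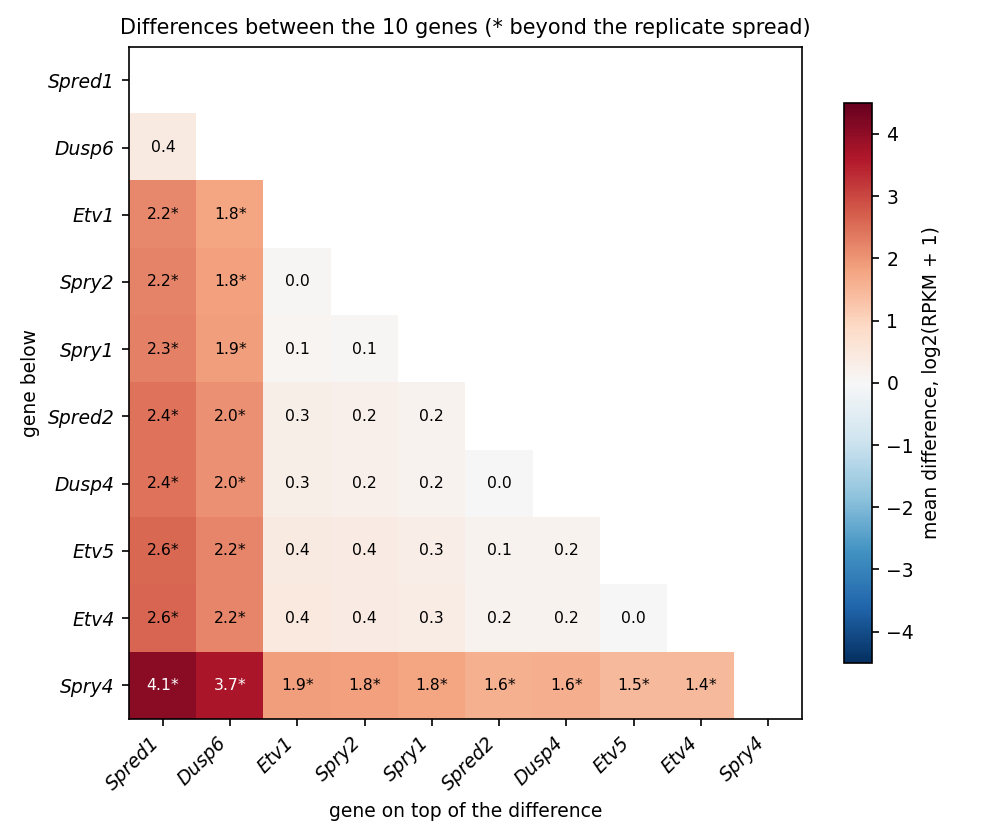
Mean difference between each pair of the 10 genes on log2(RPKM + 1), with the gene on top in columns and the gene below in rows, both ordered by mean RPKM, and an asterisk where the pair lies beyond the replicate spread. Asterisks fill the 2 columns of Spred1 and Dusp6, except for that pair itself, and the row of Spry4, while the 21 pairs of the 7 middle genes carry none.

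The order among genes depends on the transcript length behind each RPKM. Reads divided by RPKM and by an implied library size gave this length. The implied sizes, 13712000 and 77921000 reads, fall short of the summed counts and matched annotated lengths at 25.6% and 31.9% of the single-transcript loci used, and the reason was not tested. The length was 1049 bases for Spry4 in both replicates, 1775 and 1628 for Spred1, and 1625 and 1626 for Dusp6. The longest GENCODE M21 transcript among those listed for the locus is 4755 bases for Spry4, 6016 for Spred1 and 2796 for Dusp6. With that length, Dusp6 stood at 30.3 and 25.6 RPKM and Spred1 at 19.7 and 16.2, which turned their order round. Spry4 then stood at 0.798 and 0.494, under the minimum of 1 RPKM, and its share of the Sprouty sum was 4.59%. The order of the Etv genes also turned, with Etv4 at 6.09 and 3.30, Etv5 at 5.12 and 2.87 and Etv1 at 4.99 and 2.29. The same 23 pairs were called as with the deposited RPKM. Which length suits these libraries was not tested.

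All 10 genes were higher in replicate 1 than in replicate 2, as were 79.1% of loci with a mean of 1 RPKM or more. The log2 ratio of replicate 1 over replicate 2, again on RPKM + 1, had a median of 0.38 over those 18335 loci and 0.59 over the 10 genes. It was lowest for Spred1 (0.16), Dusp6 (0.24) and Dusp4 (0.29), and highest for Spred2 (1.08), Etv1 (0.93) and Spry2 (0.77). On that scale Spred2 was past 2-fold, 1 of 10 genes beside 11.8% of loci. Without the 1 added, Etv1 also passed it, at 2.01-fold. Measured from the median of all loci, the genes ran from -0.22 for Spred1 to 0.70 for Spred2, and none was past 2-fold. The largest of these shifts, that of Spred2, was 1.28 SD of the ratio at its level.

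Counting error alone was smaller than the gap between replicates: the exact Poisson 95% intervals of the CPM did not overlap for any of the 10 genes. Spry4, for example, had 2.84 CPM (2.12 to 3.72) in replicate 1 and 1.56 (1.34 to 1.80) in replicate 2. The share of all loci without overlap was not computed, so the lack of overlap cannot be read as particular to the 10 genes. On CPM + 1 the median log2 ratio of replicate 1 over replicate 2 was 0.50 over all loci and 0.92 over the 10 genes. Without the 1 added, the ratios of the 10 genes ran from 0.42 for Dusp6 to 1.30 for Etv1. The 10 most abundant loci took 3.09% of counts in replicate 1 and 9.11% in replicate 2. The globin genes Hbb-y and Hba-x were higher in replicate 2, unlike the 10 genes, and 4 of the 11 embryo tissue markers were higher in replicate 1. The part of these values in the gap was not tested.

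**Figure D3:**
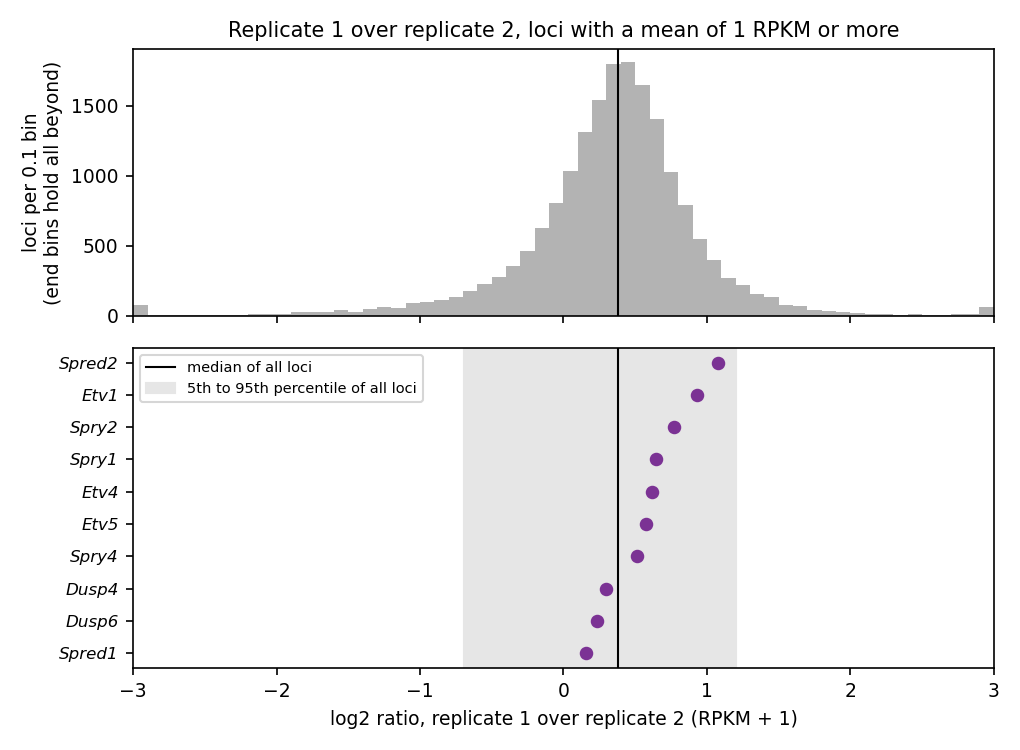
Log2 ratio of replicate 1 over replicate 2 on RPKM + 1, as a histogram over the 18335 loci with a mean of 1 RPKM or more (top) and as 1 point per gene (bottom), with a line at the median of all loci (0.38) and a band from their 5th to their 95th percentile; the end bins hold all loci beyond the axis. All 10 points lie right of 0 and inside the band, 7 of them right of the line.

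The rest of the pathway was taken from 7 lists with 81 genes, of which 80 had a locus and 62 reached 1 RPKM in both replicates. Genes called highest or lowest in a list are so by the mean of both replicates, and the order can differ within a replicate. Spry3 was the 1 listed gene for which no locus was matched, so no level is given for it. Spred3, the third Spred gene, stood at 8.05 and 6.25 RPKM, below Spred2. The list of other family members and feedback inhibitors passed at 10 of 11 loci, with a median of 35.9 and 24.1 RPKM. Its highest members by that mean were Rasa1, a Ras GTPase-activating protein, at 260.1 and 241.6 RPKM, and Dusp7, a phosphatase close to Dusp6, at 81.3 and 80.3 RPKM. Its lowest was Dusp5, a nuclear ERK phosphatase, at 1.92 and 0.979 RPKM.

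Ligands were low and core kinases high. Fgf ligands passed at 14 of 22 loci with a median of 2.33 and 1.32 RPKM. The highest by the mean of both replicates were Fgf2 (31.0 and 17.5, at a locus joined with other genes) and Fgf13 (17.7 and 15.1), an intracellular member of the family, and the lowest was the hormone Fgf23 (0 and 0.0290). Fgf8, the ligand of the limb bud ridge and the midbrain and hindbrain boundary, stood at 7.56 and 3.93 RPKM, below 9 of the 10 feedback and Etv genes in both replicates, the exception being Spry4. Receptors and co-receptors passed at 4 of 7 loci, with Fgfr2 (344.1 and 308.1) and Fgfr1 (85.7 and 44.4) highest, both joined with other genes, and Kl lowest (0.0925 and 0.0325). Adaptors between receptor and Ras passed at 8 of 8 loci, led by the phosphatase Ptpn11 (68.3 and 79.4) and by Frs3 (50.4 and 36.5, joined), with Shc1 lowest (17.5 and 10.6).

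The list of Ras, Raf, Mek and Erk passed at 11 of 11 loci, with a median of 63.1 and 55.8 RPKM. Mapk3, which encodes the kinase ERK1, stood at 35.6 and 22.8 RPKM, below Spred1 and Dusp6 and above the other 8 feedback and Etv genes in both replicates. The scaffold gene Ksr1 was the lowest of the list (8.94 and 3.95, joined). Of the 80 pathway loci, 13 had a higher mean RPKM than Spred1, 17 than Dusp6 and 55 than Spry4.

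Nuclear partners and other Ets factors passed at 11 of 12 loci, with a median of 34.2 and 19.7 RPKM. Cic, which encodes Capicua, was the highest of them at 84.8 and 60.1 RPKM, followed by the Ets gene Elk4 at 69.1 and 39.5, and Etv2, an early blood vessel factor, was lowest at 0.136 and 0.0612. Immediate early genes, which growth factor signals induce within minutes, passed at 4 of 9 loci with a median of 1.43 and 0.938 RPKM. Ier2 (22.2 and 12.9) and Myc (22.3 and 7.99) were highest and Fosb was lowest (0.179 and 0.157). The medians of the 10 feedback and Etv genes, 15.9 and 9.40 RPKM, thus lay above those of the ligand and immediate early lists. They lay below those of the receptor, adaptor and kinase lists, the list of other family members and feedback inhibitors, and the nuclear list. The place of the receptor list rests on Fgfr2 and Fgfr1, whose loci are joined with other genes. Over the unjoined receptor loci alone the median was 4.13 and 0.939 RPKM, below that of the 10 genes. These are descriptions of 1 group, with no test between lists.

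**Figure D4:**
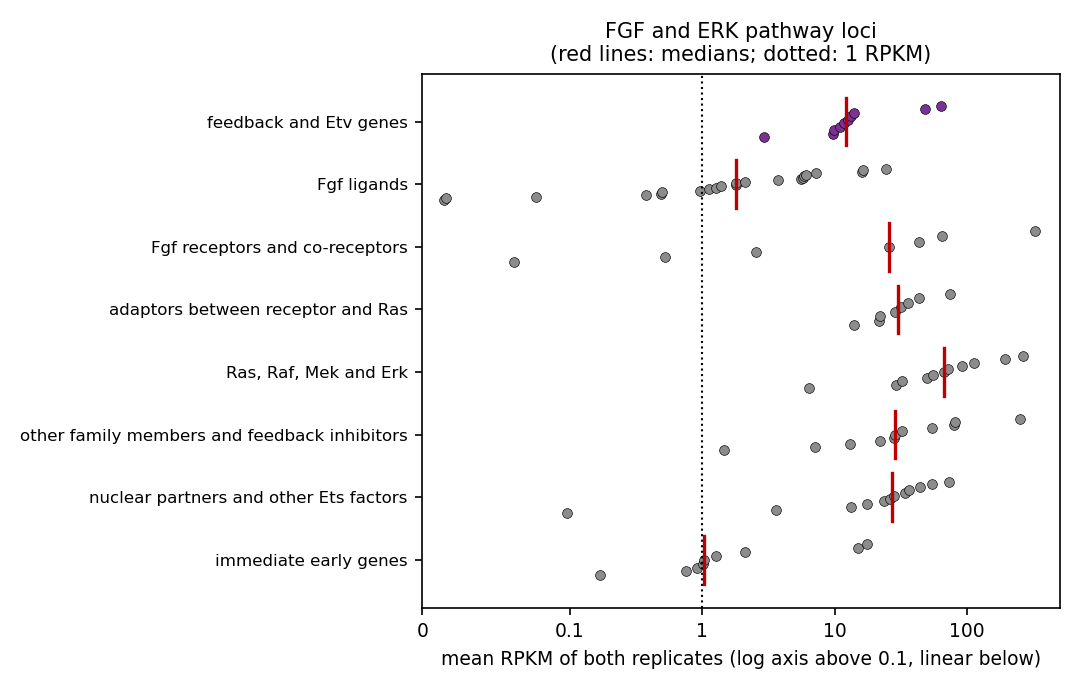
Mean RPKM of both replicates for the 10 feedback and Etv genes (purple) and the 80 loci of 7 pathway lists (grey), 1 point per locus, on an axis that is logarithmic above 0.1 RPKM and linear below, with red lines at the medians and a dotted line at 1 RPKM. The ligand, receptor, nuclear and immediate early lists reach to the left of the dotted line. The adaptor list, the Ras to Erk list and the list of other family members and feedback inhibitors lie to the right of it, as do the 10 genes.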

How the data were processed

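Total RNA of 2 replicates of whole embryos was sequenced on an Illumina platform and aligned with TopHat to mouse build mm9, per the submitters' processing notes. With the read counter, its strand setting and its filters not given in the sources used here, sense and antisense reads cannot be told apart. The authors deposited, per the file headers, raw read counts and RPKM for 34676 rows. Rows with the same gene identifiers were summed to 34624 loci. Symbols came from a table of gene names and gene types from GENCODE M21. CPM was computed from the counts. The spread was the SD of the log2 ratio between replicates in 20 level bins of loci with a mean of 1 RPKM or more. The length behind RPKM used the library size at which single-transcript loci with over 200 reads matched GENCODE lengths (13712000 and 77921000 reads). Those sizes held for 25.6% and 31.9% of such loci, within 0.1 percent. The code was tested on simulated data. Members, lists, pairs and motifs were chosen with earlier results of these data known. Named genes were the 10 members, the 2 highest and the lowest of each other list (5 markers tied at 0 were not named), Spry3, Spred3, Fgf8, Fgfr1, Mapk3 and Cic, and some genes that this rule names are not reported here. Protein identity within families was not computed. Alternatives changed the minimum, pseudocount, length, scaling, spread, rows per locus and replicates, and the GENCODE length was added after seeing the data. Python 3.11.15, pandas 2.3.3, numpy 2.4.6 and scipy 1.17.1 were used.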

Additional observations from a re-analysis of the deposited data

How the results depend on the processing

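The 10 detected genes stayed 10 with a minimum of 0.3 RPKM, in CPM and with either replicate left out, and were 9 with a minimum of 5 RPKM. With the longest GENCODE transcript as length, Spry4 fell under the minimum of 1 RPKM, at 0.798 and 0.494. The pairs beyond the spread ranged from 3 to 4 of 8 within families and from 18 to 23 of 45 in all. The lowest counts came with a pseudocount of 0.01, where the 5 pairs lost all held Spry4. No called pair within a family changed sign. The median level of the 10 genes was 12.1 RPKM as the mean of both replicates and 5.31 with the longest GENCODE transcript as length. The genes past 2-fold between replicates numbered 1, but 2 with a pseudocount of 0.01 and 3 on CPM + 1. They numbered 0 with the median ratio of all loci taken off, over loci of 1 RPKM or more or over loci above 0. Without the 1 added to CPM, Spry2 (1.01), Etv4 (1.06) and Etv5 (1.01) also passed a log2 ratio of 1. The median log2 ratio of the 10 genes, 0.59, became 0.92 on CPM + 1. With the median over loci of 1 RPKM or more taken off it was 0.21, and with that over loci above 0 taken off 0.35. Over all loci compared, the median also rose, from 0.38 to 0.50 on CPM + 1. The share of all loci past 2-fold, 11.8%, was computed for the first setting only, so the other counts have no background beside them. Pathway loci at the minimum ranged from 48 to 72 of 80 around 62. The cause of these shifts was not tested, beyond the length and scaling that define them. Depth limits Spry4 most, at 52 reads in replicate 1. No paired analysis was possible because the series has 1 group.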

Other observations

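The length behind the deposited RPKM was the same in both replicates for the single-transcript loci of Spry2 (1231 bases), Spry4 (1049) and Dusp4 (1629). It differed between replicates for the genes with several listed transcripts, by under 1 base for Dusp6. For Spry1 it was 1395 bases in replicate 1 and 1157 in replicate 2, for Etv4 1210 and 1049, and for Etv5 1692 and 1473. For Spred2 it ran the other way, at 1721 and 1878 bases. With 1 length per locus, the mean of both, the ratio of replicate 1 over replicate 2 was 1.96-fold for Spry1, against 1.63-fold as deposited, 2.18-fold for Etv1, against 2.01-fold, and 2.08-fold for Spred2, against 2.27-fold.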
